A study of Mus musculus with 11 samples.

Results

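Chromatin accessibility was examined at 31 mouse genes that carry glucose into the cell, convert it to pyruvate and decide whether pyruvate becomes lactate or enters the mitochondrion. The genes were taken from a fixed list, and every region of open chromatin overlapping the stretch from 20 kb upstream of a gene to its end was assigned to that gene. This gave 138 of the 94963 regions in the list, or 0.145%, and no region fell to more than 1 of the 31 genes. Gene coordinates came from GENCODE vM21 on the mm10 mouse genome.

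The regions came from ATAC-seq, in which Tn5 transposase cuts open chromatin and tags the cut ends for sequencing. All 11 cultures were MPC2, a mouse mesenchymal progenitor line that is a single conditionally immortalised clone, grown either undifferentiated (MSCs) or for 3 weeks in osteogenic medium (osteocytes). MSCs received vehicle (DMSO, n = 3) or FG-4592 (n = 3), and osteocytes vehicle (n = 2) or FG-4592 (n = 3). FG-4592 (Roxadustat) blocks the prolyl hydroxylases that mark HIF for breakdown. Its dose was 50 uM, and all treatments lasted 48 h. The list analysed here gives each region 1 level, the average log2 CPM (CPM, counts scaled to library size) pooled over the libraries. MSCs and osteocytes, or vehicle and FG-4592, therefore could not be compared. No level carries a replicate error, depth per library is unknown, and every difference below is a description of pooled levels without a test.

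As a check of the cell label, all 5 of 5 osteoblast lineage markers examined (Runx2, Sp7, Alpl, Col1a1 and Bglap) had an accessible promoter, with levels between 2.33 and 5.05, where 64.1% of all protein-coding genes had one. Of 5 osteocyte markers only Dmp1 had one (4.41), while Phex, Mepe, Sost and Pdpn had no promoter region in the list. Neither blood cell marker (Ptprc, Cd68) nor epithelial marker (Epcam, Cdh1) had one, and of the endothelial pair Pecam1 had one at 1.89 and Cdh5 had none. Over all protein-coding genes with a promoter region the median level was 5.03 and the lower quartile 3.84. Alpl (2.33) and Bglap (3.74) stood below that quartile, and the marker sets are small.

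Glycolysis splits glucose into pyruvate in the cytosol and yields ATP without oxygen. When oxygen is scarce, the HIF transcription factors bind hypoxia response elements (HREs), whose core is ACGTG or GCGTG, and raise glucose transporters, most glycolytic enzymes, lactate dehydrogenase A and pyruvate dehydrogenase kinase 1. The kinases switch off pyruvate dehydrogenase, so that less pyruvate reaches the mitochondrion and more becomes lactate. Bone-forming cells are known for a high rate of glycolysis even with oxygen present. Many steps have paralogs, of which some are classic hypoxia-induced genes and others are constitutive or restricted to particular tissues.

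The HRE core lay in every leading promoter region of these genes, and in 87.2% of those of all protein-coding genes, and stretches with cores are printed here to show the letters that the motif counts below rest on. A leading promoter region is the highest region within 1000 bp of an annotated start of the gene. The first 6 sequences show the closest printable pair of cores in the promoter regions that held the most cores. Sequences are read 5′ to 3′ on the strand of the gene from the RefSeq copy of GRCm38.p6 (mm10), capitals mark core matches on either strand, so that a core on the other strand appears as its reverse complement, CACGT for the A form and CACGC for the G form, and stretches overlapping an annotated exon were passed over.
Ldha, chr7:46845744-46845786, plus strand: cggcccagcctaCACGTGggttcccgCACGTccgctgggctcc
Pfkp, chr13:6647255-6647295, minus strand: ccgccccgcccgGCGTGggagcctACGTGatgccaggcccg
Eno3, chr11:70655100-70655159, plus strand: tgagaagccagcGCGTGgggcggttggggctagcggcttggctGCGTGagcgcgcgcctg
Hk2, chr6:82773832-82773883, minus strand: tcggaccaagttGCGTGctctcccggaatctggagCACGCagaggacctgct
Slc16a1, chr3:104638981-104639014, plus strand: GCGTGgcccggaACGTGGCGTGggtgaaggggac
Gapdh, chr6:125165801-125165839, minus strand: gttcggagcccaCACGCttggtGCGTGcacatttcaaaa

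The Ldha pair lay at -74 bp from the nearest annotated start (negative, upstream) with 8 bp between the cores, and its first core is part of a palindromic E-box, CACGTG, which reads as a core on both strands. The Gapdh pair lay at -47 bp with 5 bp between the cores. The Hk2 pair lay at -494 bp. The Ldha, Gapdh and Hk2 stretches lay upstream of an internal start, and so inside the longest gene model. In Pfkp and Slc16a1 the printed stretch lay 1450 and 329 bp past the nearest start, in an intron. The Eno3 stretch stood at -2073 bp, inside a broad region that also covers the start of Pfn1. A second group, chosen after the values were seen, shows further promoters and 2 accessible regions away from promoters.
Pgk1, chrX:106186938-106186985, plus strand: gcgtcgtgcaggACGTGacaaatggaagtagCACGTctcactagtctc
Pdk1, chr2:71873134-71873162, plus strand: ccgcctacatggGCGTGtctttaaccagg
Slc2a1, chr4:119109042-119109090, plus strand: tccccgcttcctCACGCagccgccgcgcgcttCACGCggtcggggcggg
Eno1, chr4:150236880-150236908, plus strand: gagactcggagtACGTGcggcgggctcaa
Pdk4, chr6:5496654-5496727, minus strand: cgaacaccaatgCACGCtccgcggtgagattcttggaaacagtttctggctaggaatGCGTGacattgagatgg
Slc2a1 upstream region, chr4:119105937-119105978, plus strand: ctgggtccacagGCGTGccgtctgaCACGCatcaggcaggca
Pdk4 upstream region, chr6:5508075-5508103, minus strand: tctagagaatatGCGTGtcttccagatga

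Pgk1 held a pair of the A form, ACGTG, at -139 bp from a start with 14 bp between the cores. The Slc2a1 upstream region, at -2794 bp, carried only the G form, GCGTG, in its 2 cores. A match of these letters is not evidence of binding, and no binding was measured here.

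Most genes of the pathway had a promoter region. Of the 31 genes, 30 had at least 1 region and an own promoter region, that is, a region within 1000 bp of an annotated start, against 64.1% of 21938 protein-coding genes. With starts of protein-coding transcripts only, 29 had one, since the Pfkl region stood at a retained-intron start. In 27 of the 30 the leading region covered a start of the gene, the exceptions being Pfkl, Pfkm and Eno3. A gene or start without a region is so only in the list analysed here, which may lack regions that are open in these cells. Aldoc, the brain form of aldolase, was the exception, with no region in the list analysed here along its whole stretch. The region nearest to its coding starts lay 3699 bp away at a level of 5.09. The median gene of the list had 4 regions, against 3 for all protein-coding genes (quartiles 1 and 5), or 0.878 against 0.588 regions per 10 kb. Slc2a3 had the most, with 11, followed by Hk2 and Pfkfb3 with 9 each, Hk1 with 8, and Pfkp and Pfkfb4 with 7 each, while Pfkl had 1.

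**Figure D1:**
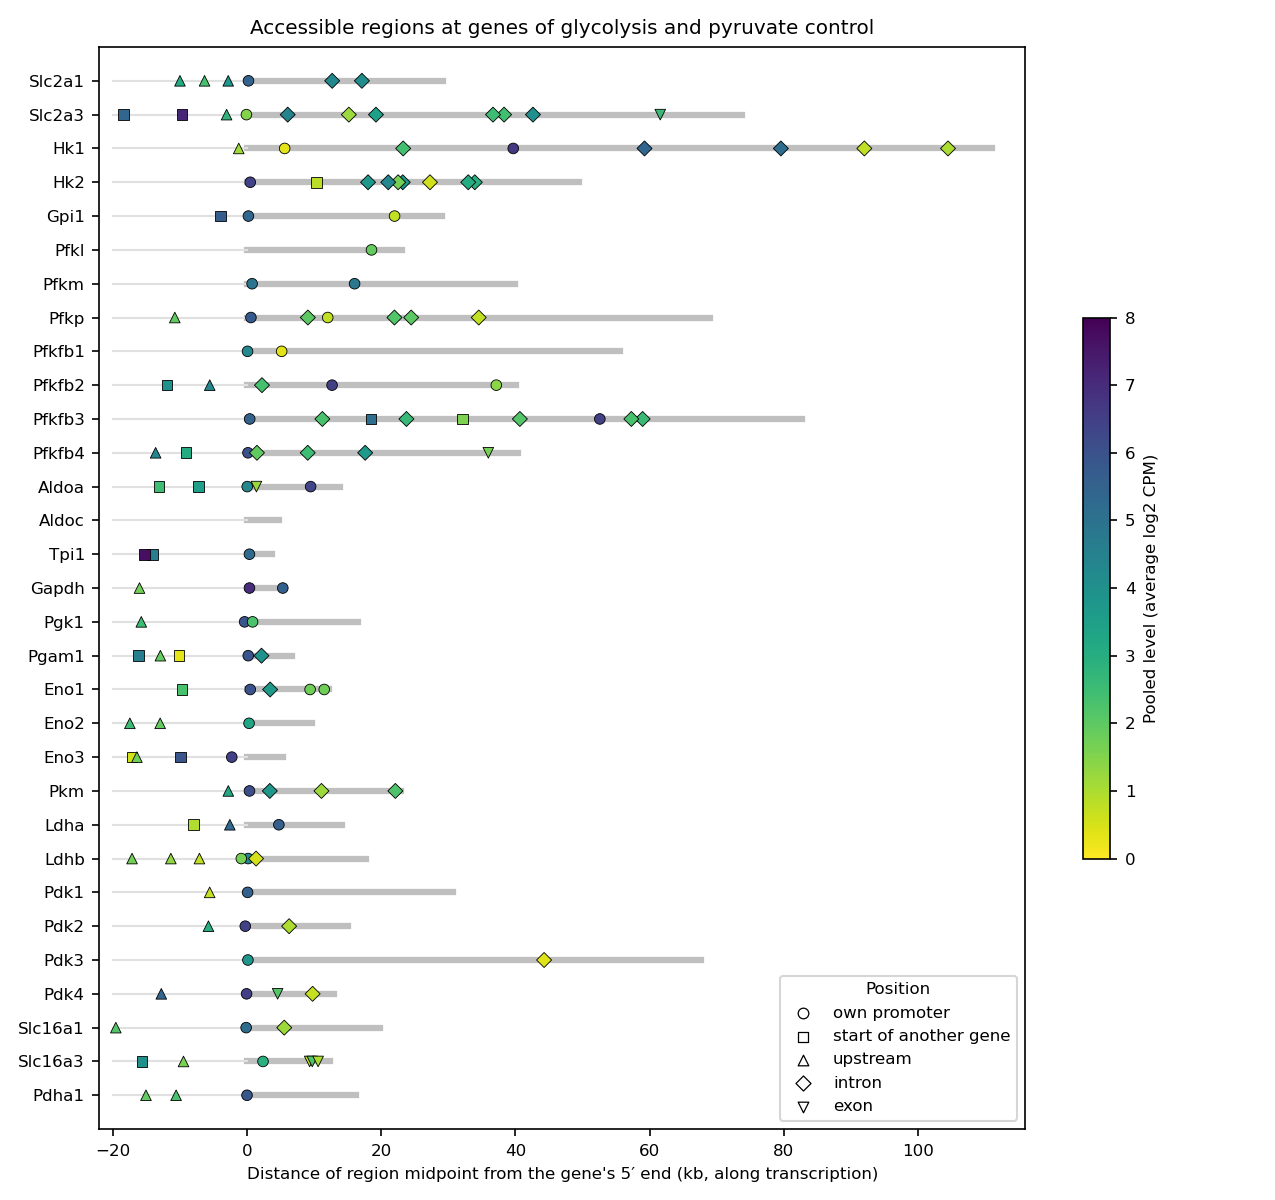
Each row is 1 gene and each symbol 1 accessible region, placed by the distance of its midpoint from the 5′ end of the gene in kb along transcription (thin line, 20 kb upstream; thick line, gene), with shape for the kind of position and colour for the pooled level in log2 CPM. Dark circles stand at or near the 5′ end of most genes, the darkest circles of Hk1 and Pfkfb3 (6.69 and 6.45) stand far inside the gene, and Aldoc has no symbol.

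By position, 43 of the 138 regions were own promoter regions, 19 lay at a start of another gene, 26 lay upstream, 43 in introns and 7 over exons. Own promoter regions had a median level of 5.37, against 2.24 upstream, 2.38 in introns and 1.66 over exons. Regions at starts of other genes had a median of 3.91 and included the highest of all, at 7.69, upstream of Tpi1 at the starts of Usp5 and Cdca3. In linear CPM, own promoter regions held 58.4% of the summed level of the 138 regions, and starts of other genes 21.2%. A gene's summed signal within 20 kb therefore included that of its neighbours.

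Leading promoter regions of the pathway were higher than those of most genes. Their median level was 5.80, against 5.03 for all protein-coding genes with a promoter region (quartiles 3.84 and 5.75), with 22 of 30 above that median, 16 above the upper quartile and 5 below the lower one. They were also wider, with a median of 1264 bp against 1112 bp, and the level of a region sums over its width. Per kb of width the medians were 5.32 and 4.75. Among leading promoter regions of coding genes in the same width class, the median percentile was 70.5, and 22 of 30 stood above 50. The widest class held 3235 of the 12706 leading promoter regions. It took in members from 1457 bp (Hk1) to 2729 bp (Eno3), so width was matched only loosely there. The GC content was 59.9% against 59.7%, and the median number of CpG dinucleotides was 81 against 66.

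**Figure D2:**
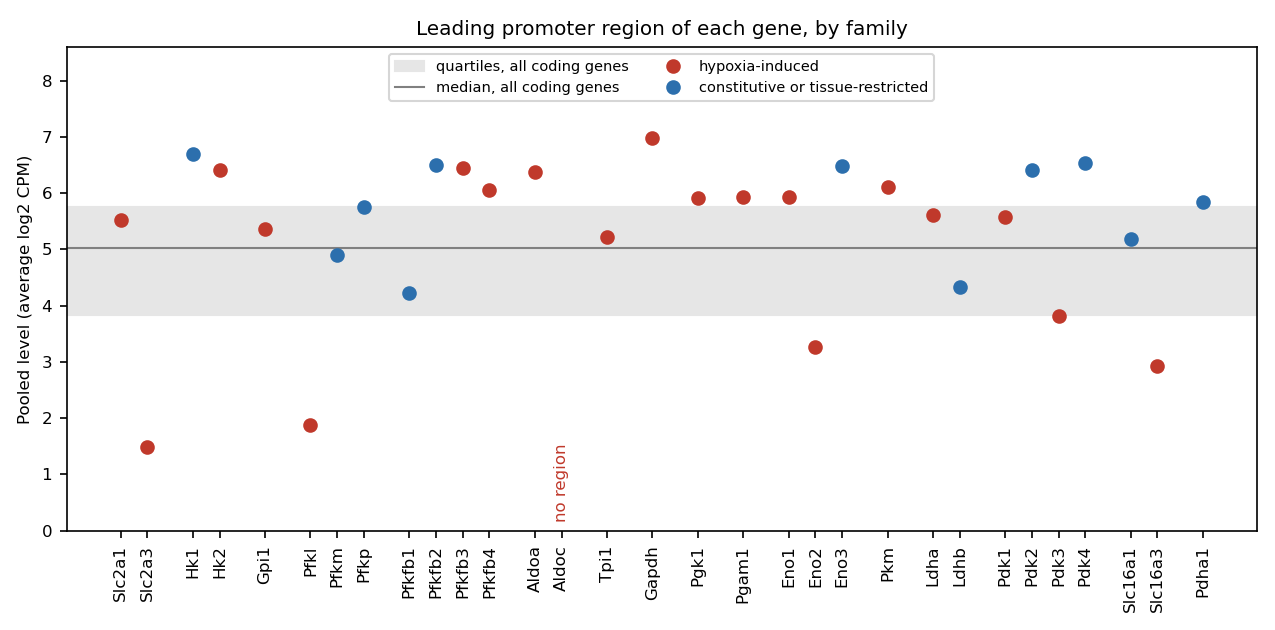
Points give the pooled level (average log2 CPM, 1 value per region without error) of the leading promoter region of each gene, grouped by family and coloured by class, with the grey band for the quartiles (3.84 to 5.75) and the line for the median (5.03) of all protein-coding genes. Gapdh is highest at 6.98, Slc2a3 is lowest at 1.49, and Aldoc has no point.

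The 5 highest leading promoter regions were those of Gapdh (6.98), the dehydrogenase of the middle of the pathway, Hk1 (6.69), Pdk4 (6.54), Pfkfb2 (6.51) and Eno3 (6.49). The Pfkfb2 region was shared with the start of Yod1, and the Eno3 region with that of Pfn1, which encodes the abundant actin-binding protein profilin. The 5 lowest were those of Slc2a3 (1.49), Pfkl (1.88), Slc16a3 (2.93), Eno2 (3.27) and Pdk3 (3.82). All 5 of the lowest belong to the hypoxia-induced class defined below, as do 19 of the 30 leading regions. For Pfkl, Slc2a3 and Slc16a3 the region did not stand at most of the coding starts, so the level is not that of those starts.

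Glucose enters through Slc2a1 (GLUT1), the widespread basal transporter, and Slc2a3 (GLUT3), the high-affinity neuronal one. Slc2a1 had a promoter region at 5.52, 3 upstream regions at 3.10, 2.37 and 3.80 from far to near, and 2 intronic regions at 4.28 and 4.08. Each of the 6 held at least 1 HRE core, as did 46.2% of all regions in the list. Slc2a3 had the reverse arrangement, with a weak promoter region among higher regions elsewhere. Its promoter region, 338 bp wide at 1.49, stood at the start of the longest transcript only, and the other annotated coding starts lay at least 1948 bp from any region in the list. Its 6 intronic regions had levels of 4.42, 1.21, 3.47, 2.49, 2.43 and 4.05 in the order of transcription, and an exonic region followed at 2.59. Upstream, a region at -3036 bp reached 2.79. The 2 highest regions of the Slc2a3 stretch, 7.15 at -9686 bp and 5.36 at -18394 bp, covered starts of Gm5112 and Foxj2.

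Hexokinases trap glucose by phosphorylation. Hk1 is the constitutive form and Hk2 the insulin- and hypoxia-induced form. The leading promoter region of Hk1 (chr10:62339504-62340960, level 6.69) stood 39677 bp inside the longest annotated gene model, at the start of transcript Hk1-202. The start that 7 Hk1 transcripts share further upstream had a region at 0.33, the lowest of the 138 except for one at 0.32 upstream of Pgam1, and the 2 most distal coding starts had none within 1000 bp. Hk1 also had the highest of the 76 regions of these genes away from any start, an intronic one at 5.36, and a second intronic one at 5.18. Its other intronic regions were at 2.38, 0.75 and 1.02, and an upstream one was at 1.13. Hk2 had a broad promoter region of 2127 bp at 6.42 that covered all of its coding starts. A cluster of 7 intronic regions between 18040 and 33950 bp past its 5′ end had levels of 3.74, 4.32, 1.68, 3.76, 0.59, 3.07 and 2.96. The remaining Hk2 region, at 0.82, lay at the start of Gm17034.

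Glucose-6-phosphate isomerase, Gpi1, had a promoter region at 5.37. The region at -3933 bp, at the noncoding genes Gm12758 and Gm12762, reached 5.64 and held 14 HRE cores, against 3 in the Gpi1 promoter region. The phosphofructokinases commit the sugar to glycolysis, as liver (Pfkl), muscle (Pfkm) and platelet (Pfkp) forms. Pfkp had the highest promoter region, at 5.76 over 2213 bp. Pfkm had promoter regions of nearly equal level at its 2 groups of starts, 4.91 at the distal one, shared with Senp1, and 4.82 at the internal start of Pfkm-201. Pfkl had only a region at 1.88, near the start of a retained-intron transcript and 18083 bp or more from its coding starts. Pfkp also had intronic regions at 2.01, 2.16, 2.00 and 0.73, an upstream region at 1.94 and an internal promoter region at 0.75.

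The Pfkfb enzymes make and remove fructose 2,6-bisphosphate, the activator of phosphofructokinase. Pfkfb3, the form with the strongest kinase activity, had a pair of high promoter regions, 6.45 at the internal starts used by 16 transcripts and 5.49 at the most distal starts used by 2 transcripts. Between them lay a region at 5.11 at the noncoding gene Gm37975 and one at 1.57 at Gm10851, together with intronic regions at 2.29, 2.61 and 2.14. Past the internal starts the intronic regions were at 2.34 and 2.58. Pfkfb4, the testis and hypoxia form, had a promoter region at 6.05 and an upstream region at 4.29 with 3 AP-1 sites. Its intronic regions were at 1.95, 2.47 and 3.69, an exonic one was at 1.66, and one at 3.11 lay at a start of Col7a1. Pfkfb2, the heart form, had its leading region at 6.51 over 2622 bp, and Pfkfb1, the liver and muscle form, at 4.22, both shared with another coding gene (Yod1 and Apex2).

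From aldolase to pyruvate, the main forms had leading promoter regions above the median of coding genes. Aldoa had 6.37 at the starts of its main record (chr7:126798774-126800477) and 4.28 at a second, upstream gene record of the same name. Triose phosphate isomerase (Tpi1) had 5.22, Gapdh 6.98, phosphoglycerate kinase (Pgk1) 5.91, phosphoglycerate mutase (Pgam1) 5.93 and pyruvate kinase (Pkm) 6.11. Gapdh had a second region at 5.59 over its 3′ end, 1326 bp wide, with no HRE core and near the start of a retained-intron transcript only. Of the enolases, Eno3 (muscle) stood at 6.49 through the region at Pfn1, Eno1 (widespread) at 5.94 and Eno2 (neuronal) at 3.27. The Eno3 region did not cover an Eno3 start, and with a limit of 500 bp Eno3 had no promoter region.

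At the branch to lactate, Ldha, the form that favours lactate production, had a promoter region at 5.61 with 16 HRE cores, and a second broad region without a core at 5.34, centred at -2554 bp from the 5′ end of the longest gene model. Ldhb, the form that favours pyruvate, had 4.33 at its promoter with 3 cores, and its other 5 regions had levels between 0.50 and 1.74. Of the lactate carriers, Slc16a1 (MCT1) had 5.18 at its promoter, and the hypoxia-induced exporter Slc16a3 (MCT4) had 2.93. The Slc16a3 region stood at an internal coding start, 2387 bp past the 5′ end, and its other 5 coding starts lay 1484 to 2085 bp from a region.

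The promoters of the pyruvate dehydrogenase kinases spanned a wide range. Pdk4, induced by fasting and fatty acids, had 6.54 at its promoter, Pdk2 (widespread) 6.41, Pdk1 (hypoxia-induced) 5.58 and Pdk3 3.82. Pdk4 also had a 2386 bp region at 5.35, centred at -12766 bp (chr6:5507883-5510268), which held 3 HRE cores. The Pdk3 region stood -2.71 from that of Pdk4 on the log2 scale, or 6.56-fold lower in linear CPM. Pdha1, the subunit that the kinases phosphorylate, had a promoter region at 5.84 with 8 cores. Pdk3, Pdha1, Pgk1 and Pfkfb1 are on the X chromosome, whose copy number in this line was not examined.

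Across paralogs, the hypoxia-induced form did not have the more accessible promoter as a rule. The list held 20 genes classed as hypoxia-induced from textbook knowledge and 11 as constitutive or tissue-restricted. Their leading promoter regions had median levels of 5.61 (19 regions) and 5.84 (11 regions), a difference of -0.23. Its sign and size did not hold, at 0.07 with a limit of 2000 bp, -0.08 with coding starts only, -0.49 in families with both classes and -0.80 for autosomal members. In 15 pairs of an induced and another member within 7 families, the induced member was higher in 3 and the other in 12. The 3 were Pfkfb3 over Pfkfb1 (4.68-fold), Pfkfb4 over Pfkfb1 (3.56-fold) and Ldha over Ldhb (2.43-fold). Hk2 and Hk1 were near each other, with Hk1 1.21-fold higher, as were Pfkfb3 and Pfkfb2, with Pfkfb2 1.04-fold higher. The largest gap in the other direction was Pfkp over Pfkl, 14.7-fold, which rests on the region at a Pfkl retained-intron start.

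The order was also taken per kb of width and without shared starts. Per kb of region width, the induced member was higher in 6 pairs and the other in 9, and the difference of the class medians turned to 0.29. Of the 11 constitutive or tissue-restricted regions, 4 (Pfkm, Pfkfb1, Pfkfb2 and Eno3) lay near the start of another coding gene, against 0 of 19 induced ones. Without these 4, the difference of the class medians was again -0.23 (19 and 7 regions), and the induced member was higher in 1 of 8 pairs, Ldha over Ldhb.

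**Figure D3:**
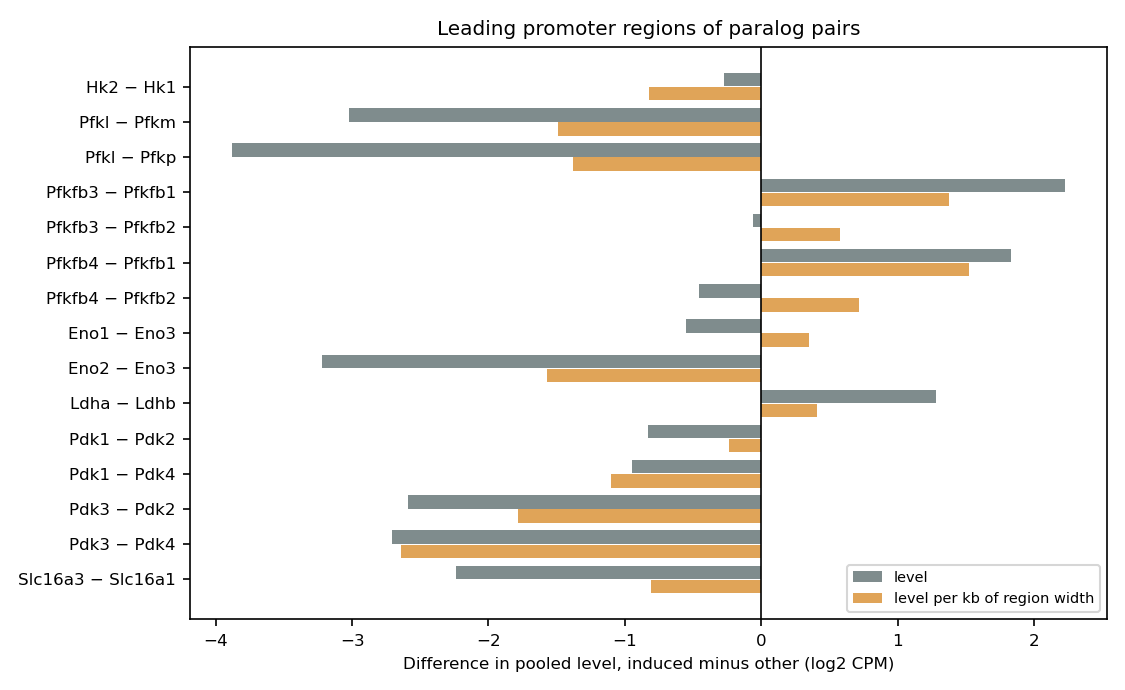
Bars show, for 15 pairs in 7 families, the pooled level of the leading promoter region of the induced member minus that of the other (log2 CPM, no error), as deposited in grey and per kb of region width in orange. Grey bars point right in 3 pairs and orange bars in 6, and the longest grey bars point left, at the pairs of Pfkl, Eno2 and Pdk3.

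HRE cores were frequent in these promoters. All 30 leading promoter regions held at least 1 core (100%), against 87.2% of 12706 leading promoter regions of protein-coding genes. Because the core contains a CpG, the count was set against CpG content. The member regions held 7.71 cores per 100 CpG and the background 4.93. For the A form, ACGTG, the rates were 3.05 and 1.44 per 100 CpG, and 90.0% of member regions held it, against 57.8%. Of the 197 cores in the 30 regions, 126 lay within 250 bp of the nearest start, and 117 lay upstream of it. In the RefSeq promoter windows of 250 bases before to 50 bases after a start, which do not depend on the accessible regions, 27 of 30 matched members (90.0%) held a core in at least 1 window, against 46.7% of 27025 genes. These 27025 genes are a different set from the 21938 protein-coding genes used elsewhere. Members had more windows per gene, and by window the shares were 75.5% of 49 and 43.8% of 32851. Per 100 CpG, member windows held 9.64 cores and all windows 5.73. Among windows with at least 10 CpG the shares were 85.7% of 35 and 68.4% of 14281.

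The A form was denser in the induced class, a comparison given without a test. Induced members held 3.77 A-form cores per 100 CpG in their leading promoter regions and the others 2.06, against 1.44 in all coding genes, while the G form stood at 4.31 and 5.14. Restricted to families with both classes, the A-form rates were 3.88 and 2.11, and without promoters shared with another coding gene 3.77 and 2.60. The order of the G form did not hold, at 5.17 and 4.82 in families with both classes. Without shared promoters it was 4.31 and 6.06. Hk2 held 7 A-form cores and Hk1 2, Ldha 5 and Ldhb 0, and Pdk1 5 against 2 in Pdk2 and 1 in Pdk4. Pfkfb3 held 5, and Pfkfb4, an induced member, held 0. Pfkp with 5 and Slc16a1 with 4 were the constitutive members with the most. Per 100 CpG the induced member had more in 11 of 15 pairs, but by number of sites in 6, with 6 the other way and 3 equal. The pairs share members and are not independent, and Pfkl enters them with 1 site among 6 CpG.

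**Figure D4:**
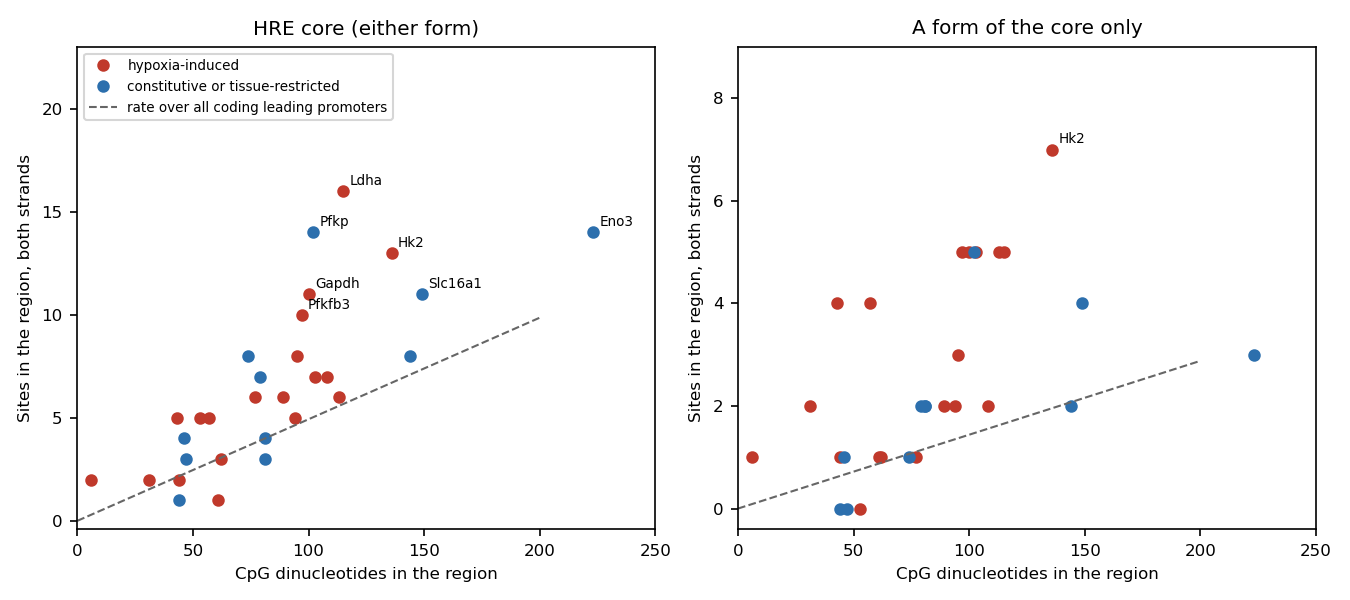
Each point is the leading promoter region of 1 gene, with its number of CpG dinucleotides on the horizontal axis and its HRE core sites on both strands on the vertical axis, for either form of the core (left) and for the A form, ACGTG, alone (right), and the dashed line is the rate over all coding genes (4.93 and 1.44 per 100 CpG). Most points stand above the lines, Ldha is highest on the left with 16 sites and Hk2 on the right with 7.

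Other motifs were counted in the same way. The E-box, CACGTG, always contains an A-form core, and 46.7% of the 30 leading promoter regions held one, against 22.7%. The GC box, GGGCGG, was in 96.7% against 80.3%, but per 100 CpG its rates were 4.62 and 4.61. The CCAAT box was in 63.3% against 64.8%. The site of the oestrogen-related receptors, TCAAGGTCA, which regulate energy metabolism, was in 2 regions (6.67%), Gapdh and Pgam1, against 1.52%. All motifs were searched on both strands.

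Away from starts, 76 regions at 25 of the genes had a median level of 2.30, against 1.89 for all 73426 such regions, with median widths of 466.5 and 408 bp. An HRE core lay in 39 of them (51.3%), against a background of 38.6%, and an AP-1 site (TGACTCA or TGAGTCA) in 28 (36.8%), against 23.7%, and 19 held both. In the leading promoter regions AP-1 sites were in 16.7% against 14.3%. Wider regions hold more sites, and the width was not matched in these shares. The genes varied. Slc2a3 had cores in 6 of its 8 such regions and AP-1 sites in 4, Hk2 cores in 5 of 7 and AP-1 sites in 2, and Pfkp cores in 2 of 5 and AP-1 sites in 4. Ldhb had cores in 0 of 4 and AP-1 sites in 1, and Slc16a3 and Pkm had cores in 1 of 4 each. The 5 highest were the Hk1 intronic regions at 5.36 and 5.18, the Pdk4 upstream region at 5.35, the Ldha upstream region at 5.34 and the Slc2a3 intronic region at 4.42.

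Other genes of the pathway were read beside the 64.1% of coding genes with a promoter region, and both lists hold too few genes to set against that share. Of 10 genes for pyruvate entry into mitochondria, the pyruvate dehydrogenase complex, its phosphatases and pyruvate carboxylase (Pcx), 10 had a promoter region, with a median of 6.34. They ranged from Pdpr at 4.62 to Mpc2, a subunit of the pyruvate carrier, at 7.25 through a region shared with Dcaf6, and 8 exceeded the median of coding genes. Of 12 tissue-restricted paralogs of the pathway, such as the sperm enzyme Ldhc, 5 had a promoter region, with a median of 1.56 and none above the median of coding genes. They ranged from Pgam2, the muscle mutase, at 0.64 to Slc2a4, the insulin-responsive transporter, at 4.30. Slc2a2, Pgk2 and Slc16a7 had no region in the list.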

How the data were processed

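The authors trimmed paired-end ATAC-seq reads, aligned them to mm10 with Bowtie2, removed duplicates with Picard 2.17.8 and called peaks with MACS2 2.2.7.1, merging peaks of several samples and dropping blacklisted ones. They counted cuts per region, filtered low counts and normalised by TMM in edgeR 3.24.3. Whether cut positions were shifted for Tn5 is not given in the sources used here. The authors removed 1 library for quality, not analysed here. The deposited list gives coordinates and 1 log2 value per region, taken here as the average log2 CPM over libraries, since 460 values are below 0 and the linear values sum to 1012761. It holds no count or value per sample, so no test, replicate error or depth could be had. Its rows stand in the order of one of the authors' own comparisons, which was not used.

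Regions were overlapped with GENCODE vM21 genes, with an own promoter region set at 1000 bp from any annotated start and both gene records named Aldoa joined. Motifs were counted on both strands in the RefSeq genome GRCm38.p6 with Python 3.11.15, pandas 2.3.3 and pysam 0.24.0, overlapping matches of a palindrome once, and counting and overlap were tested on simulated data. Coordinates are 1-based. Levels per kb are the level minus the log2 of the width in kb. For the comparison by width, 20 width classes were set over all regions of the list, and leading promoter regions were compared within their class. RefSeq promoter windows were matched by symbol for 30 members. The text names all members, every region of the 5 members with the most regions (6 with a tie), families of paralogs, the extremes of level and the promoters with the most cores. Members, classes and gene lists were chosen with earlier results of these data known, and the marker genes after the data were seen. A further gene of the tissue-restricted list is not reported here.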

Additional observations from a re-analysis of the deposited data

How the results depend on the processing

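No paired analysis was possible because each region has 1 pooled level, and leaving out replicates could not be run for the same reason. The count of 138 regions became 75 with regions of at least 500 bp only, and stayed between 94 and 194 under the other limits. The members with a promoter region numbered 28 to 30 under every limit tried. The median difference of induced minus other members (-0.23) changed sign to 0.29 per kb of width and to 0.07 with a 2000 bp limit. It was -0.80 for autosomal members, -0.49 in families with both classes and, added after the data were seen, -0.08 with coding starts only. The share of member regions with an HRE core (64.5%, background 46.2%) was 48.6% against 27.1% for ACGTG alone, 37.7% against 18.6% for a core followed by C, and 86.7% against 66.3% at 500 bp or wider. In the central 200 bp it was 32.6% against 24.2%, a gap of 8.37 points where the whole regions gave 18.3. In alternatives added after the data were seen it was 100% against 87.2% in leading promoter regions and 51.3% against 38.6% away from starts. Of the member regions 76 of 138 lay away from any start, against 73426 of 94963 in the background. Position was therefore not matched in the share over all regions. The AP-1 share (31.2%, background 22.1%) was 16.7% in the central 200 bp, against 12.1%. Low regions are limited by the authors' count filter, and levels with no error cannot rank neighbours.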
